A study of Equus caballus with 4 samples.

Results

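The genes described here encode the enzymes that take leucine from its first transamination to 3-hydroxy-3-methylglutaryl-CoA (HMG-CoA), the route on which *β*-hydroxy-*β*-methylbutyrate (HMB) arises as a side product. They were *BCAT1*, *BCAT2*, *BCKDHA*, *BCKDHB*, *DBT*, *IVD*, *MCCC1*, *MCCC2* and *AUH*, chosen by name for their place on that route. These 9 genes, of 24934 genes or unnamed transcripts on the array, were read by 13 probes. Satellite cells, the stem cells of skeletal muscle, came from horses (*m. semitendinosus* of young colts). Their total RNA was amplified and labelled as complementary RNA, which was hybridised to 4 two-colour arrays, *n* 4, all on 1 slide. The cells had been in differentiation medium for 2 days when HMB was added for 24 h, and they were harvested on day 3. The control cells differentiated in the same way without HMB. The sample labels give the HMB dose as 50 µg, and the methods give it as 50 µM. The description field of every sample names another treatment, so the groups and replicate numbers were taken from the titles. Cy5 carried the HMB-treated cells and Cy3 the controls on each array. With the dyes never exchanged, a probe's dye bias forms part of its ratio. By the methods, the cells of each culture flask were divided between a plate for HMB and a control plate. The colt behind each array is not stated, nor whether its channels shared a colt. The *P* values measure the spread between these 4 arrays, which may be partly technical.

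Leucine first gives its amino group to 2-oxoglutarate, a reversible step run by the branched-chain aminotransferases, cytosolic BCAT1 and mitochondrial BCAT2. The branched-chain 2-oxo acid dehydrogenase complex (BCKDHA, BCKDHB and DBT) then makes isovaleryl-CoA, which isovaleryl-CoA dehydrogenase (IVD), the methylcrotonyl-CoA carboxylase of MCCC1 and MCCC2, and the hydratase AUH convert to HMG-CoA. HMB is formed from the 2-oxo acid of leucine by a dioxygenase that stands outside this chain, and skeletal muscle is known for a high activity of the aminotransferase step and a low activity of the dehydrogenase in many mammals.

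Each value is a log2 ratio of HMB-treated over control cells, so that a negative value stands for less mRNA with HMB. A gene was counted as changed when limma gave an adjusted P of at most 0.05. This test sets the mean of the 4 ratios against 0, with each probe's own variance drawn towards a value common to all probes. All 13 probes passed the filter on dim probes, and in 12 of them both channels of every array were well above background. Of the 9 genes, each represented by its brightest tested probe, 2 changed, which were *BCAT1* (lower) and *BCAT2* (higher). Over all 15547 tested genes the share that changed was 22.5%, so that a count of 2 of 9 (22.2%) was near the background. Counted by probe, 4 of 13 changed, 2 in each direction, beside 22.8% of all 27384 tested probes. The median log2 ratio of the 9 genes was -0.02, and that of all tested genes was 0.02. Among the 9 genes, 4 had the same sign on all arrays (*BCAT1*, *BCAT2*, *BCKDHB* and *MCCC2*), and the other 5 had mixed signs.

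**Figure D1:**
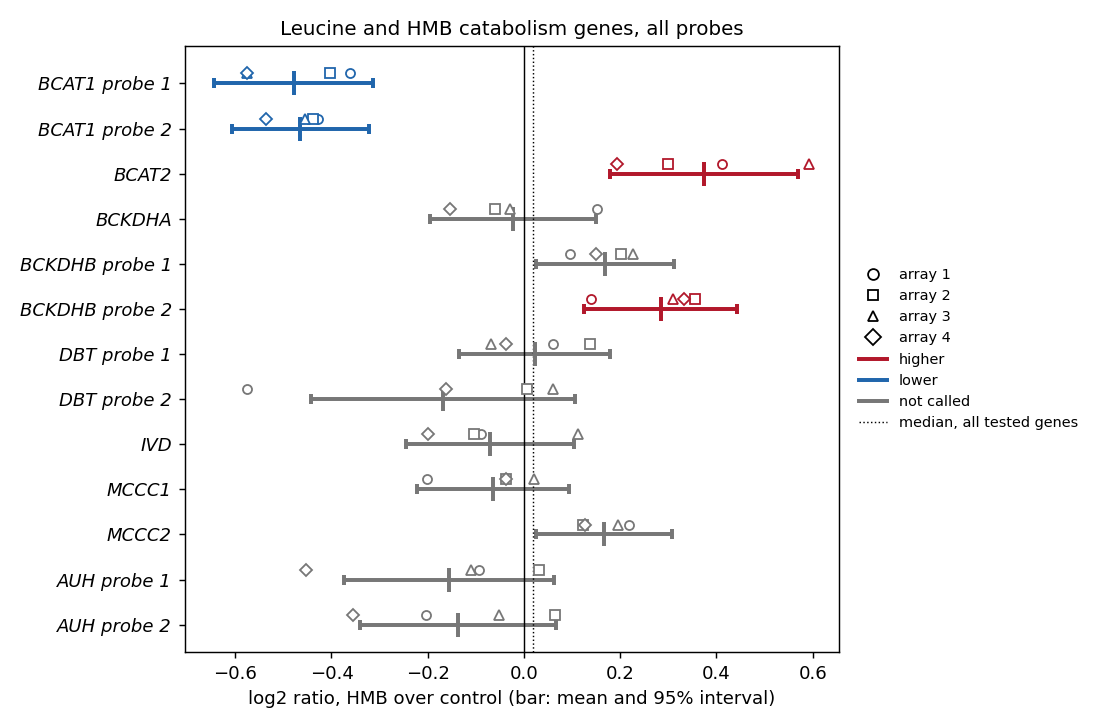
Log2 ratios of HMB-treated over control cells (horizontal axis) for the 13 probes of the 9 genes (vertical axis, probe 1 being the brighter where a gene has 2). Open symbols are the 4 arrays, bars the limma mean with its 95% interval, and colours the test result. Both *BCAT1* probes lie below 0 on every array and *BCAT2* and both *BCKDHB* probes above 0, while the remaining probes except *MCCC2* lie on both sides of 0.

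The aminotransferase genes moved in opposite directions. The probes of *BCAT1* and *BCAT2* that read the end of the coding sequence are shown so that the likeness of these related genes at that place can be seen. Both end in a stop codon. Capitals mark the longest run of bases that they share, 13 of 60.
BCAT1 probe 2: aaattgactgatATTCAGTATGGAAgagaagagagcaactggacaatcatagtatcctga
BCAT2: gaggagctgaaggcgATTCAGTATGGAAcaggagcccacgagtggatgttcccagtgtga
The first lies on chr6:50776751-50785273 and the second on chrUn:233943412-233944535 of EquCab1, both on the minus strand. Their spans of 8523 and 1124 bases are longer than the probes, so that each matches sequence split on the genome. The other *BCAT1* probe, probe 1, lies at chr6:50785287-50787210 on the same strand and shares none of these bases: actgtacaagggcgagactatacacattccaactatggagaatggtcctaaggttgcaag. No gene annotation of this build was used here, and exons are not named for that reason.

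*BCAT1*, the cytosolic enzyme, had log2 ratios of -0.36, -0.40, -0.57 and -0.58 on arrays 1 to 4 with probe 1. The processed signals behind them, which are background-subtracted and dye-normalised fluorescence in arbitrary units, were 727, 751, 812 and 809 in control cells. In HMB-treated cells they were 566, 568, 545 and 543. Every HMB value was thus below every control value of this probe. Probe 2 gave log2 ratios of -0.43, -0.44, -0.45 and -0.54. The means were -0.48 (SE 0.07; limma adjusted P = 0.00699) with probe 1 and -0.46 (SE 0.06; limma adjusted P = 0.00497) with probe 2, or 1.39-fold and 1.38-fold lower with HMB. The probes differed by 0.01 in their mean and were lower on 4 of 4 arrays. Of all tested genes, 6.57% had a lower mean than *BCAT1*. For probe 1 the change passed the threshold with any single array left out (adjusted P between 0.0176 and 0.0377). In what is here called the methods' t-test, probe 1 did not pass (adjusted P = 0.0623), whereas probe 2 did (adjusted P = 0.0374). That test takes the variance from the 4 ratios of the probe alone. The printed methods name no t-test, and it is credited to a note in the supplement.

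*BCAT2*, the mitochondrial enzyme, had log2 ratios of 0.41, 0.30, 0.59 and 0.19 on arrays 1 to 4 with its single probe. Its processed signals were 327, 291, 246 and 285 in control cells and 435, 359, 370 and 326 in HMB-treated cells. The signal was higher with HMB on each array, whereas across arrays the lowest HMB value (326) was just below the highest control value (327). The mean log2 ratio was 0.37 (SE 0.08; limma adjusted P = 0.0233), or 29.6% higher with HMB, and the direction was the same on 4 of 4 arrays. Of all tested genes, 6.92% had a higher mean. This call was less stable than that of *BCAT1*. It was lost when array 1, 2 or 3 was left out (adjusted P = 0.0637, 0.0760 and 0.0900), with no filter on dim probes (adjusted P = 0.0777), without pairing of the channels (adjusted P = 0.0932) and in the methods' t-test (adjusted P = 0.114). Its mean was also short of an added minimum of 1.3-fold.

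The opposite course of the aminotransferases was seen within each array. The log2 ratio of *BCAT2* exceeded that of *BCAT1* probe 1 by 0.77, 0.70, 1.17 and 0.77 on arrays 1 to 4, a mean difference of 0.85 (SD 0.21, *n* 4). *BCAT2* had the highest and *BCAT1* the lowest ratio of the 9 genes on all 4 arrays. An exact sign-reversal test over the 4 arrays, with 8 distinct outcomes, cannot give a two-sided p below 0.125, which is the value it gave for this difference, for *BCAT1* and for *BCAT2*. It cannot reach the threshold for any gene of this design.

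**Figure D2:**
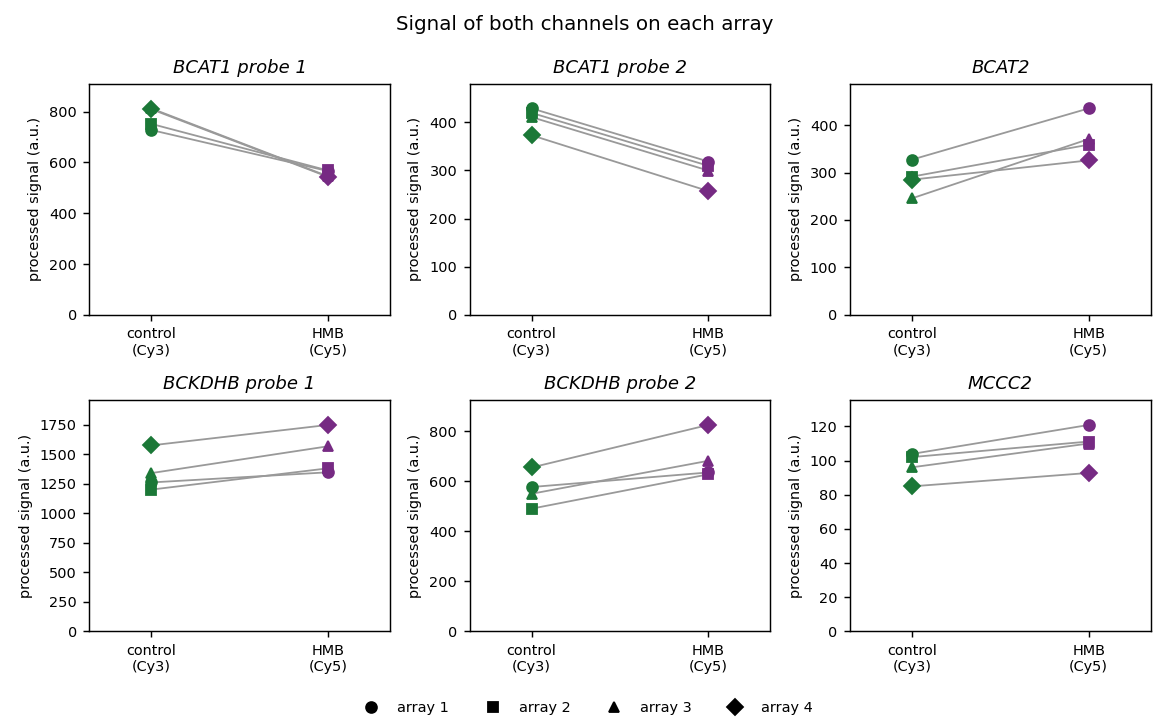
Processed signal (vertical axis, arbitrary units, from 0) in control cells (Cy3) and HMB-treated cells (Cy5) for 6 probes, each panel with a scale of its own because levels of different probes cannot be compared. A line joins the channels of an array. All lines fall for *BCAT1* and all rise for *BCAT2*, *BCKDHB* and *MCCC2*, with array 1 the flattest for both *BCKDHB* probes.

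None of the 3 genes of the branched-chain 2-oxo acid dehydrogenase passed the threshold with its brightest probe. *BCKDHB* encodes the *β* subunit of its decarboxylase component and was read by 2 overlapping probes on the plus strand, chr10:29236463-29236522 (probe 1) and chr10:29236414-29236473 (probe 2). They are shown because only 1 of them passed the test, and capitals mark the 11 bases that they share.
BCKDHB probe 2: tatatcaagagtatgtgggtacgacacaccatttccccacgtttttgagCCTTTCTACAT
BCKDHB probe 1: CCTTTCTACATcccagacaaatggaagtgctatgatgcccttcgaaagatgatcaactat
Probe 1, the brighter, had log2 ratios of 0.09, 0.20, 0.23 and 0.15 on arrays 1 to 4. Probe 2 had log2 ratios of 0.14, 0.36, 0.31 and 0.33. All 8 values were above 0. The mean of probe 1 was 0.17 (95% interval 0.02 to 0.31; limma adjusted P = 0.0901) and did not pass the threshold. That of probe 2 was 0.28 (95% interval 0.13 to 0.44; limma adjusted P = 0.0278), 1.22-fold higher with HMB. The intervals overlap, and the probes share their RNA, so they are not replicates of each other. The call of probe 2 was lost without array 2, 3 or 4 (adjusted P = 0.138, 0.114 and 0.0598), with no filter on dim probes, with ratios centred on bright spots without lowess, without pairing of the channels, in the methods' t-test and with the 1.3-fold minimum. With the mean of both probes in place of the brighter, *BCKDHB* reached 0.23 (adjusted P = 0.0472).

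*BCKDHA*, which encodes the *α* subunit of the same component, had log2 ratios of 0.15, -0.06, -0.03 and -0.15 on arrays 1 to 4. The mean was -0.02 (95% interval -0.19 to 0.15; limma adjusted P = 0.841), and its sign turned without array 4. The log2 ratio of *BCKDHB* probe 1 exceeded that of *BCKDHA* on arrays 2, 3 and 4 but not on array 1, with a mean difference of 0.19 (SD 0.17, *n* 4; exact sign-reversal p = 0.25). *DBT*, the transacylase core, had a signal of 2.49 to 4.46 times the local background in probe 1. Probe 1 of *DBT* gave log2 ratios of 0.06, 0.14, -0.07 and -0.04, with a mean of 0.02 (95% interval -0.13 to 0.18; limma adjusted P = 0.824). Probe 2 gave -0.58, 0.01, 0.06 and -0.16, and its Cy5 signal on array 1, where the ratio was lowest, was not well above background. Its mean was -0.17 (95% interval -0.44 to 0.11; limma adjusted P = 0.321), and it passed the threshold under centring without lowess (-0.38 on all spots, adjusted P = 0.0293, and -0.43 on bright spots). The sign of *DBT* thus depended on the probe, and for probe 1 it also turned to negative under normexp with loess (-0.04) and under centring without lowess on all spots (-0.09) or on bright spots (-0.14). Probe 2 turned to positive under normexp with loess (0.04).

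The 3 steps after the dehydrogenase showed no change past the threshold. *IVD*, which oxidises isovaleryl-CoA, had log2 ratios of -0.09, -0.10, 0.11 and -0.20 on the 4 arrays in order, with a mean of -0.07 (95% interval -0.24 to 0.10; limma adjusted P = 0.512), which ranged from -0.13 (without array 3) to -0.03 (without array 4) with 1 array left out. *MCCC2* encodes the *β* subunit of methylcrotonyl-CoA carboxylase and had log2 ratios of 0.22, 0.12, 0.20 and 0.13. Its mean was 0.17 (95% interval 0.02 to 0.31; limma adjusted P = 0.0892), higher on 4 of 4 arrays, and it passed the threshold only with no filter on dim probes (adjusted P = 0.0442; range over the alternatives other than leaving out an array 0.0442 to 0.491). The mean came to 0.07 under centring on bright spots. *MCCC1*, the biotin-bearing *α* subunit of the same enzyme, had log2 ratios of -0.20, -0.04, 0.02 and -0.04 and a mean of -0.06 (95% interval -0.22 to 0.09; limma adjusted P = 0.509), which came to -0.02 without array 1 and -0.14 under centring on bright spots. The ratio of *MCCC2* exceeded that of *MCCC1* on all 4 arrays, by 0.16 to 0.42, with a mean difference of 0.23 (SD 0.13, *n* 4; exact sign-reversal p = 0.125, the smallest possible).

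*AUH*, the methylglutaconyl-CoA hydratase, which also binds AU-rich RNA, was read by 2 probes with means of -0.16 (95% interval -0.37 to 0.06; limma adjusted P = 0.254) and -0.14 (95% interval -0.34 to 0.07; limma adjusted P = 0.280). On arrays 1 to 4 probe 1 gave log2 ratios of -0.09, 0.03, -0.11 and -0.45. Probe 2 gave -0.20, 0.06, -0.05 and -0.35. Both probes were lowest on array 4 and just above 0 on array 2. Without array 4 the mean of probe 1 came to -0.06. The 2 genes of several probes with the closest probe means were *BCAT1* and *AUH*, 0.01 and 0.02 apart, while those of *BCKDHB* were 0.12 and those of *DBT* 0.19 apart.

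Taken by array, the median log2 ratio of the 9 genes was 0.06, 0.03, 0.02 and -0.04 on arrays 1 to 4, and that of all tested genes lay between 0.01 and 0.03. On arrays 1, 2 and 3, 5 of the 9 genes were above 0, and on array 4, 3 were. Array 4 held the lowest ratios of *BCAT2*, *BCKDHA*, *IVD* and *AUH* probe 1. For *BCAT1* probe 1, arrays 3 and 4 were nearly equal (-0.5747 and -0.5753). The distance between the highest and the lowest gene was 0.77, 0.70, 1.17 and 0.77.

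The enzymes and regulators around these steps were described from 7 lists of 60 genes, of which 56 were on the array under these names and 52 were tested. Of the 52, 4 changed (7.69%), 3 higher and 1 lower, beside 22.5% of all tested genes. Their median log2 ratio was 0.02, equal to that of all tested genes at this rounding. *ABAT*, *ACADL*, *SLC16A3* and *GLUD1* were not found by name, and 4 genes, among them *HPD*, *ACACB* and *SLC7A8*, did not pass the filter.

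The rest of the leucine and HMB route comprised 12 genes, 10 of them tested, with 1 lower, none higher and a median of 0.00. The 9 not called had means between -0.13 and 0.36, the highest that of *HPDL* (limma adjusted P = 0.0565), named after its values were seen. The signal of *HPDL* in control cells was dim, 1.92 to 2.76 times the local background. Without array 2 the list had 2 calls. *BDH1*, the mitochondrial 3-hydroxybutyrate dehydrogenase that interconverts ketone bodies, had log2 ratios of -0.70, -0.72, -0.81 and -0.83 on arrays 1 to 4. All values were close together and far below 0. The mean was -0.76 (SE 0.06; limma adjusted P = 0.00139), 1.70-fold lower with HMB, and the call held under all 14 other settings and without any single array.

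*DLD*, the dihydrolipoamide dehydrogenase that the branched-chain complex shares with the pyruvate and 2-oxoglutarate complexes, was read by 2 probes. The brighter gave log2 ratios of -0.03, -0.05, -0.17 and -0.27 on arrays 1 to 4, which averaged -0.13 (95% interval -0.29 to 0.04; limma adjusted P = 0.22) and came to 0.0011 under median centring without lowess. The other gave -0.21, -0.18, -0.27 and -0.29, with a mean of -0.24 (limma adjusted P = 0.0342). All 8 values were below 0, and only the dimmer probe passed. Neither the kinase nor the phosphatase of the complex passed the threshold. *BCKDK*, the kinase that inactivates it, had log2 ratios of 0.24, -0.14, -0.14 and -0.18, with a mean of -0.06 (95% interval -0.27 to 0.16; limma adjusted P = 0.677), or -0.15 (limma adjusted P = 0.136) without array 1. *PPM1K*, the phosphatase that activates it, had ratios of 0.27, 0.29, 0.19 and -0.30 with its brighter probe, with a mean of 0.11 (95% interval -0.15 to 0.38; limma adjusted P = 0.495). Its other probe gave 0.10, 0.13, 0.12 and -0.57, with a mean of -0.05. Without array 4 the mean of the brighter probe came to 0.25 (limma adjusted P = 0.0522). In each of them 1 array stood on the other side of 0 from the rest, array 1 for *BCKDK* and array 4 for *PPM1K*. *HPD*, whose product is the cytosolic dioxygenase credited with making HMB from the 2-oxo acid of leucine, was not well above background in either channel on any array, so that no ratio is given.

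**Figure D3:**
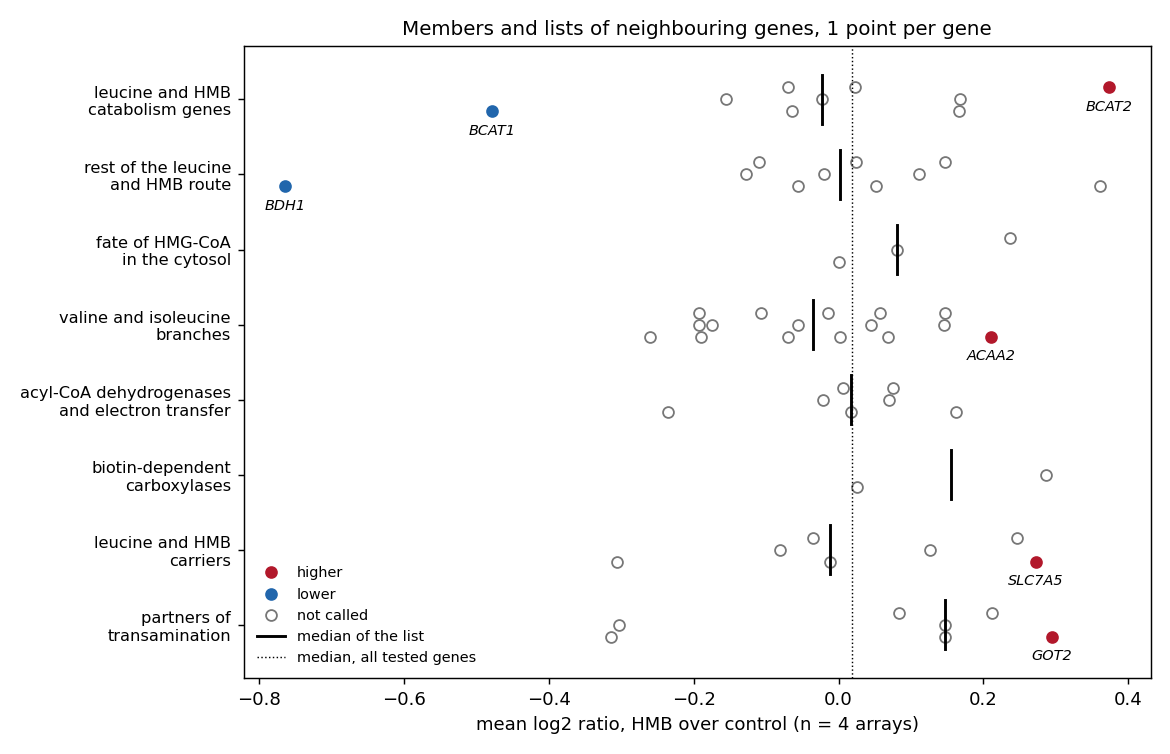
Mean log2 ratio of HMB-treated over control cells (horizontal axis, *n* 4 arrays), 1 point per tested gene, for the 9 genes and the 7 lists (rows; points are offset vertically for legibility only). Filled points passed the test and are named, thick bars are list medians and the dotted line is the median of all tested genes, 0.02. *BDH1* and *BCAT1* stand apart on the lower side, and most points lie between -0.3 and 0.3.

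In the valine and isoleucine branches, which share the aminotransferases and the dehydrogenase complex with leucine, 1 of 16 tested genes changed and the median was -0.04. It was *ACAA2*, a mitochondrial 3-oxoacyl-CoA thiolase, with log2 ratios of 0.29, 0.16, 0.21 and 0.18 on arrays 1 to 4, averaging 0.21 (SE 0.06; limma adjusted P = 0.0494), just inside the threshold. The call was lost with any single array left out (adjusted P between 0.0710 and 0.171) and in 5 of the 14 other settings, among them normexp with loess (adjusted P = 0.0934; range over the 14 settings 0.0156 to 0.141). Its mean ranged from 0.15 (normexp with loess) to 0.34 (median centring without lowess). The other 15 genes had means between -0.26 and 0.15. The list had 0 calls with any array left out and 3 under centring on bright spots. Under normexp with loess it had 2, though *ACAA2* was not called there.

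None of the 7 tested acyl-CoA dehydrogenases and electron transfer proteins, which work as *IVD* does or take up its electrons, passed limma's threshold (median 0.02), 1 had an unadjusted P of at most 0.05, and the methods' t-test called 0. Of the biotin-dependent carboxylases beside *MCCC1* and *MCCC2*, 2 were tested and 0 passed limma's threshold (median 0.16), 1 with an unadjusted P of at most 0.05 and 0 by the methods' t-test. The cytosolic use of HMG-CoA for sterols, with 3 tested genes, also had 0 calls by limma (median 0.08), 1 unadjusted P of at most 0.05 and 0 calls by the methods' t-test. Without array 4 each of these last 2 lists had 1 call, as the sterol list also had under centring without lowess. The means of these 12 genes lay between -0.24 and 0.29.

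Among the carriers of leucine and HMB, 1 of 7 tested genes changed and the median was -0.01. *SLC7A5*, the light chain of a plasma membrane exchanger of large neutral amino acids, had log2 ratios of 0.35, 0.34, 0.31 and 0.09 on arrays 1 to 4. Array 4 stood apart from the rest. The mean was 0.27 (SE 0.07; limma adjusted P = 0.0373), 1.21-fold higher with HMB, and the call was lost without array 1, 2 or 3 (adjusted P up to 0.162) and in 7 of the 14 other settings, among them an intensity trend with a robust prior (adjusted P = 0.0590; range over the 14 settings 0.0319 to 0.275). Its mean came to 0.14 under centring on bright spots, where the list still had 1 call. The signal of *SLC7A5* in control cells was dim, 2.23 to 2.74 times the local background. Among the partners of transamination, 1 of 7 tested genes changed, and the median was 0.15. *GOT2*, the mitochondrial aspartate aminotransferase, had log2 ratios of 0.51, 0.24, 0.21 and 0.22, with array 1 apart from the rest. Its mean was 0.29 (SE 0.07; limma adjusted P = 0.0363), 1.23-fold higher, and the call was lost with any single array omitted (adjusted P between 0.0567 and 0.117) and in 4 of the 14 other settings. The 6 genes of this list not called had means between -0.31 and 0.21. The list had 2 calls under centring without lowess, on all or bright spots, and 0 without array 2 or 3. Without array 1 or 4 it had 1 call, though *GOT2* was not called.

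The likeness of ratios to those of *BCAT1* was measured for 15 genes, the other 8 of the 9 and 7 genes named from the lists, by the root mean square difference over the 4 log2 ratios. The nearest of the 15 were *BDH1* (0.29), *AUH* (0.35) and *DLD* (0.35). The other list genes were not compared, so that these need not be the nearest of the lists. *GOT1*, for example, had log2 ratios of 0.05, -0.27, -0.53 and -0.51. These lay closer to *BCAT1* than those of *BDH1* did on arrays 2, 3 and 4, but not on array 1. *BDH1* was lower than *BCAT1* on every array, whereas *AUH* and *DLD* were higher on every array and did not pass the test. Of 19 tested marker genes of cell types, compared only after their values were seen, 5 lay nearer than *BDH1*, which were the myogenic *MYOG* (0.10), *MYOD1* (0.14), *ACTC1* (0.17) and *MYF6* (0.26) and the leukocyte gene *CD68* (0.25).

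The identity of the cells was read from marker genes on the same arrays. All 10 myogenic markers found on the array, of 14 listed, were well above background in each channel of each array. All 10 were lower with HMB (limma adjusted P of at most 0.05 for each), with a median log2 ratio of -0.85. Fewer myogenic cells and less RNA per cell cannot be told apart in these cultures, and the part of this shift in the ratios of *BCAT1* and *BCAT2* was not tested. Of 8 fibroblast markers on the array, 7 were so in each channel of each array, and 2 changed, both higher, while the median of the 7 tested was 0.01. These were *PDGFRA* (1.53) and *FAP* (0.42), named after their values were seen. The other 5 lay between -0.21 (*COL3A1*) and 0.15 (*DCN*), with *COL1A2* (-0.20) and *THY1* (-0.10) also below 0. Among markers of other cells, 2 of 4 adipocyte genes on the array (*ADIPOQ* and *FABP4*) and 4 of 5 endothelial genes (*PECAM1*, *VWF*, *KDR* and *TEK*) were not well above background in any channel of any array. The same held for 2 of 5 leukocyte genes (*ITGAM* and *CD3E*) and 1 of 3 liver genes (*APOA1*). The liver gene *ALB* was well above background on 3 of 4 arrays in each channel, and *TTR*, *LEP*, *CIDEC*, *CDH5* and *CSF1R* were so on at most 1 array in a channel. The leukocyte markers *CD68* and *CD14*, named after their values were seen, were above background throughout and had mean log2 ratios of -0.29 (limma adjusted P = 0.12) and 0.02 (limma adjusted P = 0.868).

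**Figure D4:**
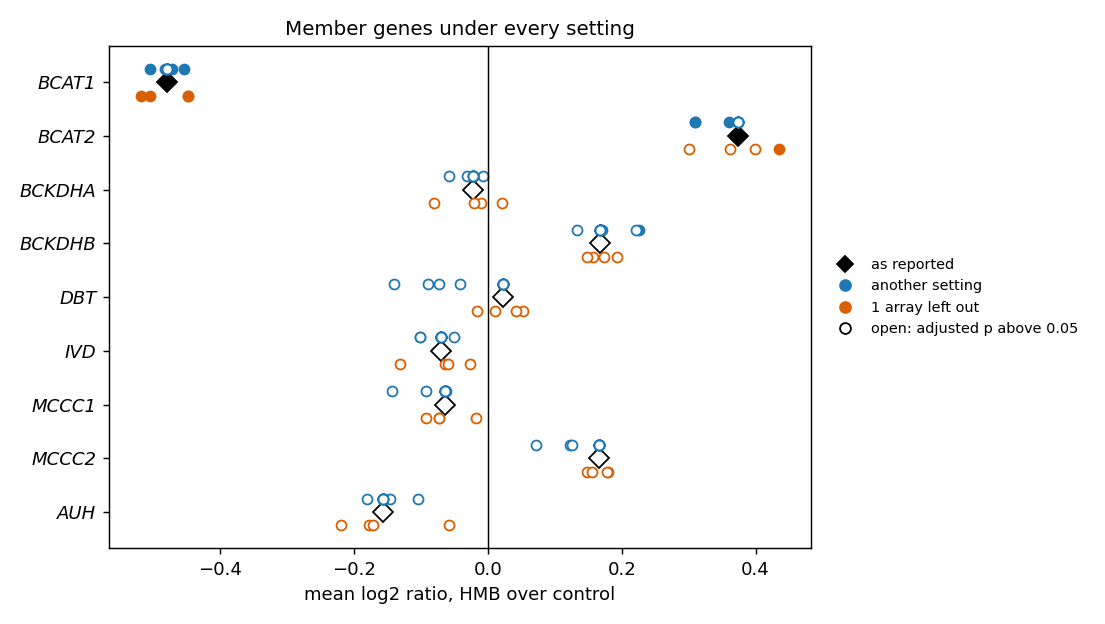
Mean log2 ratio of HMB-treated over control cells (horizontal axis) of the 9 genes (rows) as reported (black), under 14 other settings (blue) and with 1 array left out (orange). Filled symbols have an adjusted P of at most 0.05. *BCAT1* stays below -0.4 throughout, *BCAT2* stays above 0.3 with open symbols in several settings, and *DBT* and *BCKDHA* lie on both sides of 0.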

How the data were processed

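The authors scanned the arrays with Feature Extraction (10.10.1.1 in the file headers, another version than in the methods). The deposited ratios are log10 values of Cy5 over Cy3, background-subtracted and dye-normalised by the authors. The deposited intensity columns are raw, background and processed signals in arbitrary units, and the other deposited columns used are spot marks. Ratios were put on the log2 scale, 1417 control spots an array and spots marked non-uniform or outlying were left out, and replicate spots were averaged. Tested probes had 1 channel well above background throughout the 4 arrays and values on at least 3.

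limma 3.58.1 (R 4.3.3, intercept only, two-sided) was run on all 27384 tested probes, with Benjamini-Hochberg adjustment. It was tested on simulated data. Python 3.11.15, numpy 2.4.6, pandas 2.3.3 and matplotlib 3.10.9 made the summaries. Member probes were named by the files. Over the whole array the files named 24962 of 43603 probes, and RefSeq accessions named another 1186, used only for genes outside the 9.

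All 9 members are named, and in each list the genes past the threshold (at most 4), with *BCKDK*, *PPM1K*, *DLD* and *HPD*. Another gene of that rule is not reported here. The members and lists were chosen with earlier results of these data known. The deposited ratio errors and P values were not used. Alternatives were normexp (offset 50) with loess, median centring without lowess, the methods' t-test (credited to a note in the supplement, as the printed methods give none, and run on the 4 ratios of a probe), a trend with robust prior, unpaired channels, the array as replicate block, no filter, marked spots kept, both channels above background, the value table, an added 1.3-fold minimum, the mean of a gene's probes, RefSeq-named probes added (0 for the members) and each array left out. Centring on spots above background was added after seeing the data. The number of arrays limits the precision.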

Additional observations from a re-analysis of the deposited data

Results flagged for a closer look

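In 3 of the 20 sets of 4 ratios examined (13 probes of the leucine and HMB catabolism genes and 7 genes of the lists), 1 array stood far from the other 3, by the gap to its nearest neighbour as a share of the whole range. Chance gives about 1 in 20 such sets. For *BCKDK* the share was 0.907, with array 1 at 0.24 and the other arrays between -0.18 and -0.14. For *GOT2* it was 0.874, with array 1 at 0.51 and the others between 0.21 and 0.24. For *SLC7A5* it was 0.866, with array 4 at 0.09 and the others between 0.31 and 0.35. None of the 13 probes of the 9 genes showed such a gap. Each list gene was examined by its brightest probe only. The dimmer probe of *PPM1K*, not among the 20 sets, had array 4 at -0.57 and the others between 0.10 and 0.13.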

How the results depend on the processing

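As reported, 2 of the 9 genes, 4 of their 13 probes, 4 genes of the 7 lists and 6257 of all probes were called. The methods' t-test gave 0 genes (4 with an unadjusted P of at most 0.05, as with limma), 1 probe, 1 list gene and 768 probes in all. The probe of the 9 genes that passed it was *BCAT1* probe 2. Channels taken as separate samples with no replicate block gave 1, 2, 1 and 2226, with 29.9% of all called probes higher in HMB-treated cells in place of 49.1%. With the array as the replicate block every count was as reported (2, 4, 4 and 6257). An added 1.3-fold minimum gave 1, 2, 1 and 3863. With no filter on dim probes 2 list genes and 3690 probes were called, and median centring without lowess gave 7 list genes, with 59.2% of called probes higher. Centring on spots above background in both channels, chosen after seeing the data, gave 8 list genes. With 1 array left out, the calls ranged from 1 to 2 genes, 2 to 3 probes, 1 to 5 list genes and 2573 to 4957 probes in all. Fewer arrays enter those fits, while for the other settings the cause was not tested.

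No gene mean that changed its sign was called. *DBT* came to -0.041 under normexp, -0.089 under median centring, -0.139 under centring on bright spots and -0.073 as the mean of its probes, while its probe 2 came to 0.045 under normexp. *DLD* came to 0.0011 under median centring. With 1 array left out, *DBT* ranged from -0.016 (without array 2) to 0.053 and *BCKDHA* from -0.081 to 0.021 (without array 4). Over the 14 settings that keep all arrays, 5 calls of the 9 genes were lost, 2 were gained and 4 signs turned. The value table, the added RefSeq names and the array block left these genes' values as they were. *BCAT1* lay between -0.50 and -0.45, and *BCAT2* between 0.31 and 0.37. The signal of *DBT* probe 2, 1.92 times background at its lowest, limits its ratio.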
